A study of Arabidopsis thaliana with 3 samples.

Results

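CER26 (AT4G13840) and AT2G39980 are genes of Arabidopsis thaliana whose proteins belong to the HXXXD-type acyltransferase family, also called BAHD. They were measured in leaves of plants overexpressing the transcription factor WIN1 and of plants carrying an empty vector. They were taken from 3592 genes that the array annotation paired with a probe set of their own, a group of short probes reported as 1 value. CER26 was read by probe set 12028_at and AT2G39980 by 18876_at, 1 probe set each. These 2 genes were chosen by their ratios to the control in these data, which earlier results had shown to be below 1 for CER26 and above 1 for AT2G39980 in the WIN1 lines. The ratios to the control are therefore given as a description, with no test.

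The WIN1 group had 2 arrays, of 35S:WIN1 lines 13 and 22, each hybridised with RNA from the pooled leaves of several T2 progeny. The control group had 1 array, of RNA pooled from leaves of several plants transformed with an empty binary vector, which the labels title a WT control. The 35S promoter of cauliflower mosaic virus is active in most plant tissues, so it does not limit WIN1 to the epidermis. The labels used here give no age or ecotype. Each line is represented by 1 pool. The control had no replicate, and an error given as an SD is that between the 2 lines alone.

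BAHD enzymes transfer an acyl group from coenzyme A to an alcohol or an amine, and carry an HXXXD motif at the active site. In plants they make esters and amides of surface polymers, pigments, volatiles and polyamines. CER26 is an unusual member: it is known to act with the condensing enzyme of very-long-chain fatty acid elongation to extend the longest wax precursors of leaves. WIN1 is an AP2/ERF factor whose overexpression makes leaves glossy and increases epidermal wax. No role of AT2G39980 is given here beyond its family.

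Linear intensities were available for 8247 probe sets, and the median deposited intensity of the line 13, line 22 and control arrays was 70.2, 35.2 and 84.1. Each array was scaled to a common trimmed mean, and log2 was taken after adding a pseudocount of 18.6, so that log2 ratios are on the log2(value + pseudocount) scale. Of all probe sets, 5773 were bright enough to be kept, both genes among them. Leaf tissue was checked by 9 mesophyll genes, of which 5 were matched to a probe set: LHCB4.1, PSAE-1, RCA, PRK and SBPASE. All 5 were kept, and their scaled intensities summed to 8899 on the line 13 array and 13951 on the line 22 array, against 9010 on the control array. That higher sum in line 22 is of scaled values, for which line 22 was multiplied by 1.40 and the control by 0.788. Deposited intensities in line 22 were below the control for LHCB4.1 (3183 against 4054.5) and RCA (2707 against 2758). The same held for PRK (1348 against 1427) and SBPASE (442 against 690). The PSAE-1 probe sets went both ways, with 2483 against 2398, 1483 against 1528 and 2813 against 3578. The part of the higher scaled sum in the ratios of line 22 was not tested. No gene listed for epidermis, trichomes, guard cells, flower, seed or root had a probe set paired with it in the annotation, nor had WIN1 itself, so the overexpression was not checked here.

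CER26 was lower in both WIN1 lines than in the control, and by different amounts. Its scaled intensity was 257.7 on the line 13 array and 93.0 on the line 22 array, against 403.4 on the control array. The control was thus the highest of the 3 arrays and line 22 the lowest, with line 13 between them. The scaled intensity was 0.639 times that of the control in line 13 and 0.231 times in line 22. On the log2 scale the ratios were -0.61 in line 13 and -1.92 in line 22, a mean of -1.26 ± 0.925 (SD, n = 2 lines). All 3 values lay above the pseudocount, and with a floor in its place, which leaves these values as they are, the log2 ratios were -0.65 and -2.12. In pooled leaf tissue, fewer cells that express a gene and less of its RNA per cell cannot be told apart.

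AT2G39980 was higher in both WIN1 lines than in the control, by amounts whose closeness depended on the scaling. Its scaled intensity was 245.1 on the line 13 array and 321.1 on the line 22 array, against 64.7 on the control array. Both WIN1 values lay above the control value, which was itself above the pseudocount of 18.6. The scaled intensity was 3.79 times that of the control in line 13 and 4.96 times in line 22. The log2 ratios were 1.66 in line 13 and 2.03 in line 22, a mean of 1.85 ± 0.258 (SD, n = 2 lines). The pseudocount lowered them, and with the floor they were 1.92 and 2.31.

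**Figure D1:**
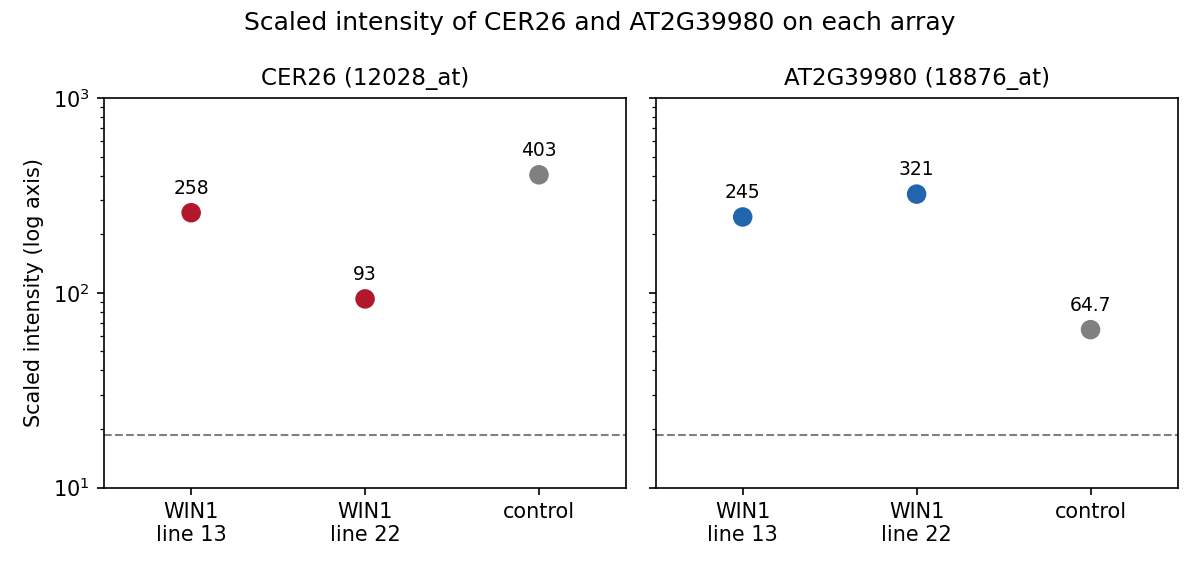
Scaled intensity (log axis) of CER26 and AT2G39980 on each of the 3 arrays, with the pseudocount of 18.6 as a dashed line and no error bars because each point is 1 array. CER26 is lower in line 13 (257.7) and line 22 (93.0) than in the control (403.4), whereas AT2G39980 is higher in line 13 (245.1) and line 22 (321.1) than in the control (64.7).

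The ratios of the genes lay apart within each line. The log2 ratio of AT2G39980 exceeded that of CER26 by 2.27 in line 13 and by 3.95 in line 22, a mean of 3.11 ± 1.18 (SD, n = 2 lines). Without a pseudocount, the ratio to the control was 5.93 times as high for AT2G39980 as for CER26 in line 13 and 21.5 times as high in line 22. Those 2 values do not depend on how the arrays are scaled by a factor, since both genes share each array. The opposite direction fixed the choice of the genes and is not evidence of its own.

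On the deposited values, before any scaling, CER26 was again lower and AT2G39980 again higher in both lines than in the control. CER26 had a deposited intensity of 262.6 on the line 13 array and 66.3 on the line 22 array, against 511.9 on the control array. AT2G39980 had 249.7 on the line 13 array and 228.8 on the line 22 array, against 82.1 on the control array. Its deposited intensity was 3.04 times that of the control in line 13 and 2.79 times in line 22, although on these values the log2 ratios of the kept probe sets centred on medians of -0.27 for line 13 and -0.78 for line 22. AT2G39980 thus lay above the control on arrays whose values were as a whole dimmer than those of the control.

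Relative to the median of the kept probe sets on the same array, both genes had nearly the same ratio whichever way the arrays were scaled. Scaling an array by a factor shifts a bright gene and that median by nearly the same amount. This closeness was thus largely fixed in advance, except under quantile normalization. Over the 4 scalings, which were a common trimmed mean, none, a common median and quantile normalization, CER26 had a log2 ratio minus that median of -0.64 to -0.62 in line 13 and of -1.88 to -1.72 in line 22. For AT2G39980 the same difference was 1.63 to 1.70 in line 13 and 2.08 to 2.15 in line 22. With the other pseudocounts and the floor included, it spanned 1.31 to 1.92 in line 13 and 1.70 to 2.41 in line 22 for AT2G39980. Not relative to the median, and over all 7 settings tried, the CER26 log2 ratio lay between -0.92 and -0.55 for line 13 and between -2.66 and -1.55 for line 22. The AT2G39980 log2 ratio lay between 1.31 and 1.92 for line 13 and between 1.30 and 2.41 for line 22. Neither gene changed direction in either line.

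**Figure D2:**
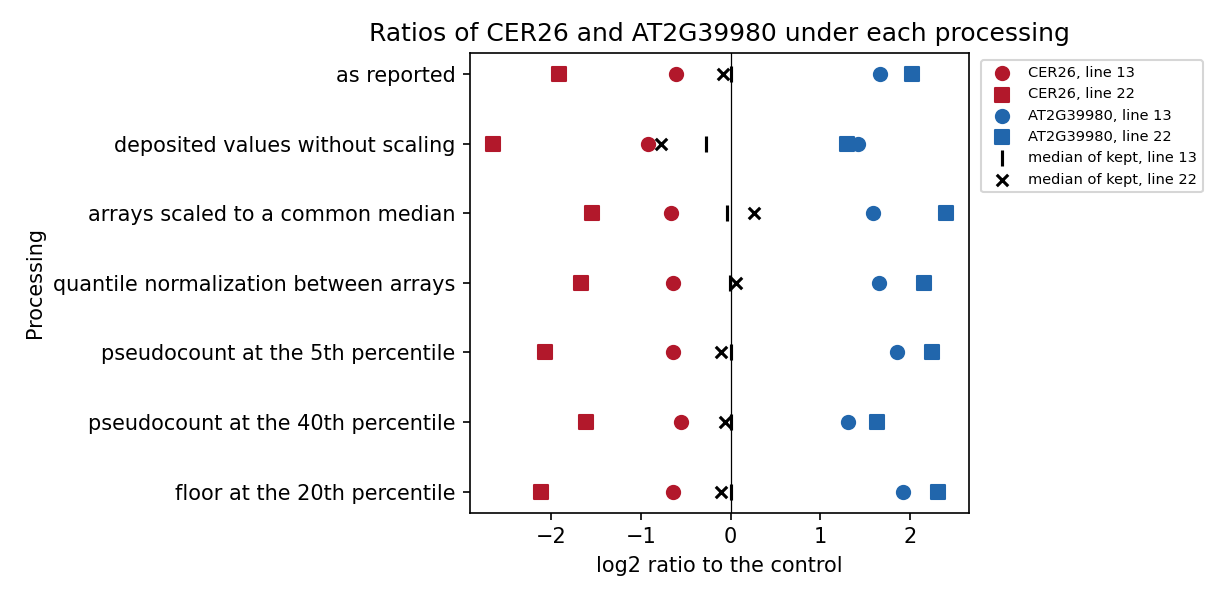
Log2 ratio to the control (horizontal axis) of CER26 and AT2G39980 in each WIN1 line under 7 ways of processing the values (vertical axis), with the median ratio of the kept probe sets as a bar for line 13 and a cross for line 22. Under every processing shown, both CER26 points lie below 0 and both AT2G39980 points lie above it, and without scaling the medians shift to -0.27 and -0.78.

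Among the 5773 kept probe sets, AT2G39980 was 1 of 50 that were at least 2-fold higher than the control in both lines (0.866%). As high as AT2G39980 or higher in both lines were 11 probe sets, itself included (0.191%). Taking each line by itself, 1.49% were at least 2-fold higher in line 13 and 7.38% in line 22. The ratio of AT2G39980 itself was reached by 0.45% in line 13 and by 0.554% in line 22. CER26 did not meet the 2-fold rule, which 32 probe sets met as lower in both lines (0.554%), because its line 13 ratio was too small. It was at least 2-fold lower in line 22, as were 16.4% of kept probe sets, whereas 1.25% were so in line 13. As low as CER26 or lower were 4.12% in line 13, 4.37% in line 22, and 36 probe sets in both (0.624%). Lower than the control in both lines by any amount were 30.4%, and higher by any amount in both were 27.1%. On the deposited values without scaling, the probe sets at least 2-fold apart in both lines were 22 higher and 107 lower, in place of 50 higher and 32 lower. These shares describe where the genes lie and were part of what chose them.

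The same ratios can be set beside the spread of probe sets of similar brightness. CER26 lay in the second brightest of 5 equal groups of kept probe sets, in which the ratios of 1155 probe sets had an SD of 0.365 for line 13 and 0.9998 for line 22. The 10th and 90th percentiles of that group were -0.34 and 0.38 in line 13 and -1.41 and 0.99 in line 22. CER26 was below the 10th percentile in each line. AT2G39980 lay in the middle group, where 1154 probe sets had an SD of 0.359 in line 13 and 0.974 in line 22, with 90th percentiles of 0.43 and 0.78. Its ratios were above both. The spread in line 22 was wider than in line 13 in both groups. The ratios of both genes chose them, so their place in this spread is a description.

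**Figure D3:**
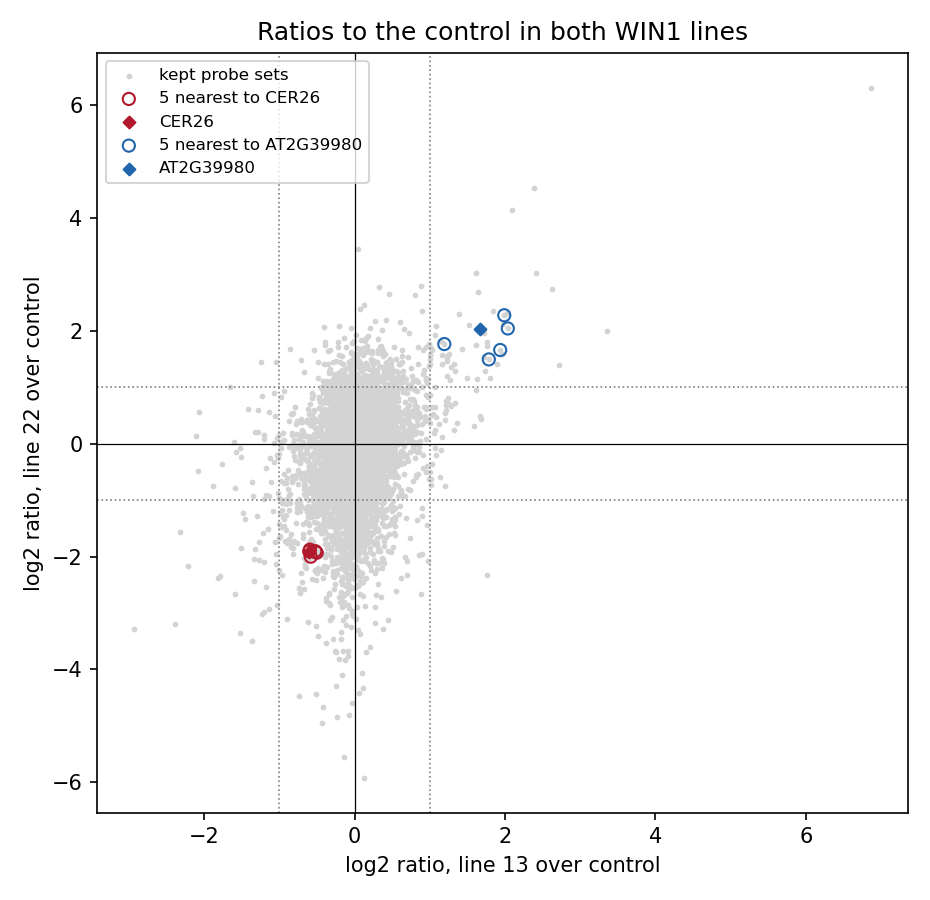
Log2 ratio to the control in line 13 (horizontal axis) and in line 22 (vertical axis) for the 5773 kept probe sets, with dotted lines at 2-fold. AT2G39980 (1.66, 2.03) lies in the sparse upper right with its 5 nearest genes scattered around it, and CER26 (-0.61, -1.92) lies at the lower edge of the main cloud with its 5 nearest genes close by.

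Neither gene had a second probe set paired with it, so each rests on a single reading per array. For scale, 108 genes had more than 1 kept probe set, and log2 ratios from the same gene had an SD of 0.216 for line 13 and 1.12 for line 22. That SD is a spread between probe sets on the same arrays, not between plants or pools. For line 13 it was smaller than the SD of 0.365 and 0.359 among probe sets of similar brightness to CER26 and AT2G39980. For line 22 it exceeded the corresponding 0.9998 and 0.974. The 108 genes were not matched in brightness, whereas each of the other SDs is from a group of similar brightness. Whether probe sets of the same gene differ as widely as those of different genes at matched brightness was thus not tested. With an SD of 1.12 within genes, the line 22 ratio of either gene, from a single probe set, is an uncertain reading of that gene.

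Between the transgenic lines, the log2 difference was larger in size for CER26 than for AT2G39980, by a margin that depended on the scaling and was not tested. CER26 was 2.77 times as bright in line 13 as in line 22, a log2 difference of 1.31. Such a difference of at least 2-fold towards line 13 was found in 15.3% of kept probe sets, and 9.94% had one as large as that of CER26 or larger. The CER26 difference ranged from 0.89 to 1.74 over the scalings, and fell short of 2-fold with arrays scaled to a common median. AT2G39980 was 0.763 times as bright in line 13 as in line 22, a log2 difference of -0.37, short of the 2-fold that 6.6% of kept probe sets reached towards line 22. This direction depended on the scaling: on the deposited values AT2G39980 was 1.09 times as bright in line 13 as in line 22. Its log2 difference was -0.50 with quantile normalization. With arrays scaled to a common median it was -0.82, nearly the size of the 0.89 of CER26 under that scaling. Each line had 1 array, so differences between the lines have no replicate check.

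Few other genes of the family were named on the array, and all but 1 of these were too dim to be kept. Of 61 listed BAHD loci, 6 were matched to a probe set, namely both genes above and 4 others, and 1 of those 4 was kept. AT2G40230, the kept one, had a scaled intensity of 30.1 on the line 13 array and 13.6 on the line 22 array, against 24.7 on the control array. Its log2 ratios were 0.17 and -0.43, and it did not pass the two-sided limma test over all kept probe sets (adjusted p = 0.9999, unadjusted p = 0.838, n = 2 lines and 1 control). That test called 2 of 5773 probe sets higher (0.0346%) and 0 lower. An unadjusted p under 0.05 was found for 129 of the 5773, a share that is itself below 0.05. For AT2G40230, line 13 lay above the control and line 22 below it, and the line 22 value lay under the pseudocount.

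The other 3 family members were too dim to be kept. SHT (AT2G19070), spermidine hydroxycinnamoyl transferase, an enzyme of polyamine conjugates known from the tapetum of anthers, had scaled values below 0 on all 3 arrays, from -5.57 to -3.26. AT4G15390 was likewise below 0 on all 3, from -14.6 to -0.62. AT2G25150 was below 0 in both lines and had 4.22 in the control, under the pseudocount. CER26 and AT2G39980 were thus the listed BAHD genes whose values cleared the pseudocount on all 3 arrays. No fold is given for the 3 dim genes.

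CER26 was also the only gene of its pathway that the annotation named on the array. Of 28 loci listed for very-long-chain fatty acid elongation, which include the condensing enzymes, the reductases and the dehydratase of the elongase complex, CER26 alone was matched to a probe set. No locus was matched among 17 listed for wax synthesis, export and control, or among 20 for cutin and suberin synthesis. Whether the partners of CER26 differed between the lines and the control was therefore not analysed here.

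The genes most like CER26 were sought among 2597 kept probe sets paired with 1 other gene, by the distance between pairs of log2 ratios in line 13 and line 22. The 5 nearest were AT2G47440, AT1G12010, AT3G46690, AT4G25370 and AT4G15890, at distances from 0.013 to 0.109. AT2G47440 had a scaled intensity of 134.0 on the line 13 array and 43.0 on the line 22 array, against 213.0 on the control array. AT4G25370 had 378.8 on the line 13 array and 133.7 on the line 22 array, against 551.9 on the control array. Both followed the order of CER26, with all values above the pseudocount. AT4G15890 had 93.5 on the line 13 array and 23.0 on the line 22 array, against 140.3 on the control array. The line 22 values of AT1G12010 (-0.83) and AT3G46690 (-7.29) were below 0, so the pseudocount set their line 22 ratios and their likeness to CER26.

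Among the 2597 kept probe sets paired with 1 other gene, none was as near to AT2G39980. Probe sets with no gene listed were not searched. Kept probe sets are sparse there, since 0.191% were as high as AT2G39980 or higher in both lines. The 5 nearest to AT2G39980 were AT4G15140, AT2G42990, AT1G03010, AT2G27940 and AT2G23440, at distances from 0.376 to 0.549. AT4G15140 had a scaled intensity of 90.8 on the line 13 array and 91.0 on the line 22 array, against 8.04 on the control array. AT2G42990 had 109.8 on the line 13 array and 137.7 on the line 22 array, against 13.7 on the control array. The control value of AT1G03010 was 6.2, and those of AT2G27940 (-0.31) and AT2G23440 (-5.04) were below 0. All 5 thus lay under the pseudocount in the control, whereas AT2G39980 lay above it there, and the likeness of these ratios rests in part on the pseudocount. With 3 arrays, likeness in either set covers 2 ratios that share 1 control.

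The nearest genes on the chromosome that had a probe set, in the order of the RefSeq genes, were looked up after the values had been seen. AT4G13820 and AT4G13860, each separated from CER26 by 1 protein-coding gene, were too dim to be kept. AT2G39960, separated from AT2G39980 by 1 protein-coding gene, had a scaled intensity of 62.8 on the line 13 array and 11.5 on the line 22 array, against 58.7 on the control array. AT2G40010, on the other side with 4 genes between, had 27.1 on the line 13 array and 31.3 on the line 22 array, against 16.9 on the control array. Their log2 ratios were 0.07 and -1.36 for AT2G39960 and 0.36 and 0.49 for AT2G40010, below the 1.66 and 2.03 of AT2G39980. That was near certain in advance, since 0.191% of kept probe sets were as high as AT2G39980 or higher in both lines.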

How the data were processed

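Leaf RNA of 2 WIN1 lines and 1 empty-vector control was measured on Affymetrix Arabidopsis genome arrays, by the manufacturer's procedure per the labels. The deposited values are linear intensities, 1 per probe set, with 13.6% to 16.0% of an array at or below 0. How the authors summarised probes or subtracted background is not given in the sources used here. Arrays were scaled to a common mean of 176.6 after trimming 2% at each end (line 13 times 0.981, line 22 times 1.40, control times 0.788). Negative values were raised to 0, and log2 was taken after adding 18.6, the 20th percentile of positive scaled values, as a pseudocount. Probe sets above the 30th percentile of mean log2 value were kept. limma 3.58.1 in R 4.3.3 (lmFit, eBayes with trend, Benjamini-Hochberg over 5773 probe sets) compared lines with control, with 1 residual degree of freedom. Its residual error comes only from the difference between the 2 lines, moderated over probe sets, and the single control is assumed to have the same variance. The code was run on simulated data whose noise was equal on all arrays and smaller than the spread between these lines. That run does not show how the test performs at the noise of these data. The number of arrays limits the precision.

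Names came from GEO's platform annotation, updated through a RefSeq gene table: of 8247 probe sets, 3794 had 1 gene, 70 had more than 1 and 4383 had no gene listed; 3784 matched a locus. The files name no genome build, so no coordinates are printed, and the family list was applied by locus. The genes, lists and tests were chosen with earlier results of these data known. Named genes were all matched list members and the 5 nearest to CER26 and to AT2G39980 by ratio; 4 chromosomal neighbours outside this rule were named after their values had been seen. Alternatives were other scalings, pseudocounts, a floor, filters, fold thresholds, eBayes settings and leaving out either line. The arrays were of 1 chip lot and 1 scanning session per the file headers.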

Additional observations from a re-analysis of the deposited data

How the results depend on the processing

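No paired analysis was possible because there is a single control array. The mean log2 ratio of AT2G39980, 1.85, was 1.36 on the deposited values, 1.47 with a pseudocount at the 40th percentile and 2.12 with a floor. Leaving out either line gave 1.66 to 2.03 for AT2G39980, -1.92 to -0.61 for CER26 and 2.27 to 3.95 for their difference. Neither gene changed direction to the control under any of the alternatives run. The AT2G39980 log2 difference of line 13 over line 22 turned to 0.12 on the deposited values and was -0.82 with common-median scaling. By construction, leaving out the scaling lowers the ratios and a larger pseudocount shrinks them.

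The 2 probe sets past limma adjusted p became 1 with common-median scaling, a pseudocount at the 5th percentile, eBayes without trend or robust eBayes, 4 with a pseudocount at the 40th, and 0 with quantile normalization, a floor or no filter (60, 43 and 307 at an unadjusted p under 0.05). Without either line limma could not be fitted. The 82 probe sets at least 2-fold apart in both lines numbered 129 on the deposited values, 147 under the 5th-percentile pseudocount, 39 under the 40th-percentile one, 146 under the floor and 47 under the 50th-percentile filter. A 1.5-fold threshold gave 275 and a 3-fold one 26. Each line alone gave 158 (line 13) to 1372 (line 22). Between the lines, 752 probe sets were 2-fold apart under the 40th-percentile pseudocount in place of 1262. Other BAHD genes past adjusted p stayed at 0 by limma under each alternative scaling, pseudocount, floor and filter, and were not counted under the other eBayes settings. With no filter, the lowest unadjusted p among the 4 was 0.00102, for values at or near 0 (adjusted p = 0.128), and above the 50th percentile none was left to test. Values below 0 in both lines were raised to 0, so the lines did not differ by construction, as for AT2G25150 (log2 ratio -0.29 in both). A low p for such values is not evidence of a difference. Causes of other shifts were not tested.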
